A study of Homo sapiens with 6 samples.

Results

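The 10 genes described here encode the serine proteases and the peroxidase of azurophil granules, proteins that pack or restrain them, and a surface protein of the precursor cells that make them: ELANE, PRTN3, PRSS57, AZU1, CTSG, MPO, MS4A3, SRGN, CST7 and SERPINB1. They were taken by symbol from the 20036 genes of the deposited table, and all 10 were found. They were chosen by their fold changes, with the difference between corilagin and DMSO in these libraries already known, so that difference is given for them as a description, with its standard error and without a p-value. RNA came from MV411 (labelled wild type), a human cell line established from acute monocytic leukaemia that carries a KMT2A fusion and a FLT3 internal tandem duplication. Cells had been kept for 48 h with corilagin, an ellagitannin from plants whose dose the labels do not state, or with DMSO, the solvent control. Each group had 3 libraries. The labels do not tie the replicates to separate cultures, so the spread between libraries may be technical. Poly(A) RNA was sequenced, and levels are FPKM, the fragments of a gene corrected for its length and for the size of the library. From 17602928 to 21433854 fragments per library could be recovered from the deposited values.

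Azurophil granules are the first granules to form in the neutrophil lineage. Their proteins are made in a burst at the promyelocyte stage, from genes switched on in granulocyte-monocyte precursors by factors such as C/EBP alpha, PU.1, MYB and RUNX1, and transcription stops as the cells mature. Elastase, proteinase 3 and cathepsin G are made as inactive precursors, activated by cathepsin C and stored on the proteoglycan serglycin, and monocytic leukaemia lines often keep part of this programme.

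RefSeq promoters (GRCh38.p14) were at hand for 6 of the 10 genes: PRTN3, PRSS57, AZU1, CTSG, MS4A3 and SERPINB1. The stretches before the start of PRTN3, PRSS57, CTSG and MS4A3 are shown because these 4 genes had lower RNA after corilagin, and each ends where the GENCODE release 29 gene begins. AZU1 was lower too, but its RefSeq window lies inside the GENCODE gene and is not shown. They lie at chr19:840749-840959 (plus strand), chr19:695499-695702 (minus strand), chr14:24576261-24576500 (minus strand) and chr11:60056415-60056586 (plus strand). Capitals mark matches, on either strand, to GAGGAA (the core bound by PU.1 and other ETS factors), TTNNGNAA (C/EBP) or TGTGGT (RUNX).
PRTN3: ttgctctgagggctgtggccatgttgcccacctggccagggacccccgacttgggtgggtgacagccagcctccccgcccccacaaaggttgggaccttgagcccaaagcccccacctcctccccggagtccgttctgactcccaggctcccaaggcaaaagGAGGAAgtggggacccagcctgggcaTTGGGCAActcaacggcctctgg
PRSS57: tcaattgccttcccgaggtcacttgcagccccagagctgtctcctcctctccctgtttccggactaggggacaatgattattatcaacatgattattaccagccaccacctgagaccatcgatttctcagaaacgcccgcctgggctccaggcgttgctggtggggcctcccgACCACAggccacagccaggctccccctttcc
CTSG: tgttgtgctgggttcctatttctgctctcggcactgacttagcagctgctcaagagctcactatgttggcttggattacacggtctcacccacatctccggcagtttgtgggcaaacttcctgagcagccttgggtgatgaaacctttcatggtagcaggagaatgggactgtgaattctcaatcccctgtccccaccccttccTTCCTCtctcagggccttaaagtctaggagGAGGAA
MS4A3: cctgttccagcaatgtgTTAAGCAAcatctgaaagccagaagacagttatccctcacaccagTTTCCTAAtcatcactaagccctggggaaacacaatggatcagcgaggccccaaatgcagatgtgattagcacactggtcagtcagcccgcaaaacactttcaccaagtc
In the 250 bases before each RefSeq start, PRTN3 held GAGGAA at positions -88 to -83 and TTNNGNAA at -62 to -55. The letters of the latter match, TTGGGCAA, also stood before AZU1, at -111 to -104. CTSG held GAGGAA at 2 places, MS4A3 held TTNNGNAA at 3, of which the match at -68 to -61 lies beyond the stretch shown, and PRSS57 held TGTGGT at 1. SERPINB1, whose RNA did not pass the test, held none of the 3. A further motif, AACNG (MYB), was present before all 6 genes. Among 34788 distinct promoter windows of the same length, 23.6% held GAGGAA, 33.2% TTNNGNAA, 11% TGTGGT and 70.6% AACNG, so most of these matches are frequent by letters alone.

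After 48 h of corilagin the cells carried less RNA of 7 of the 10 genes. MS4A3 was at 0.126 of its DMSO level, ELANE at 0.285, MPO at 0.298, PRTN3 at 0.355, PRSS57 at 0.379, CTSG at 0.537 and AZU1 at 0.645. The packing proteoglycan SRGN and the inhibitors CST7 and SERPINB1 lay between 0.857 and 1.11 of DMSO and did not pass the test. In limma, fitted to log2(FPKM + 1) over the 9868 genes whose mean reached 1 FPKM, an adjusted p under 0.05 was reached in the lower direction by 7 of the 10 genes and by 13.5% of all tested genes. None of the 10 was called higher, at an unadjusted p under 0.05 or with voom either, against 11.9% of all tested genes. In the 7 genes called lower, all corilagin libraries lay below all DMSO libraries, as they did in 23.3% of tested genes. Of these 7, MPO and MS4A3 passed the filter only through their DMSO values, so their calls have no weight. At a mean of at least 5 FPKM, which leaves both out, 5 of 8 tested genes of the set were lower, as were 1010 of 6570 genes. Since the choice of genes used this contrast, these counts are no evidence about the set. The median log2 difference of the 10 was -0.82, against 0.035 over all tested genes. In bulk RNA, fewer cells making a transcript and less of it per cell cannot be told apart.

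**Figure D1:**
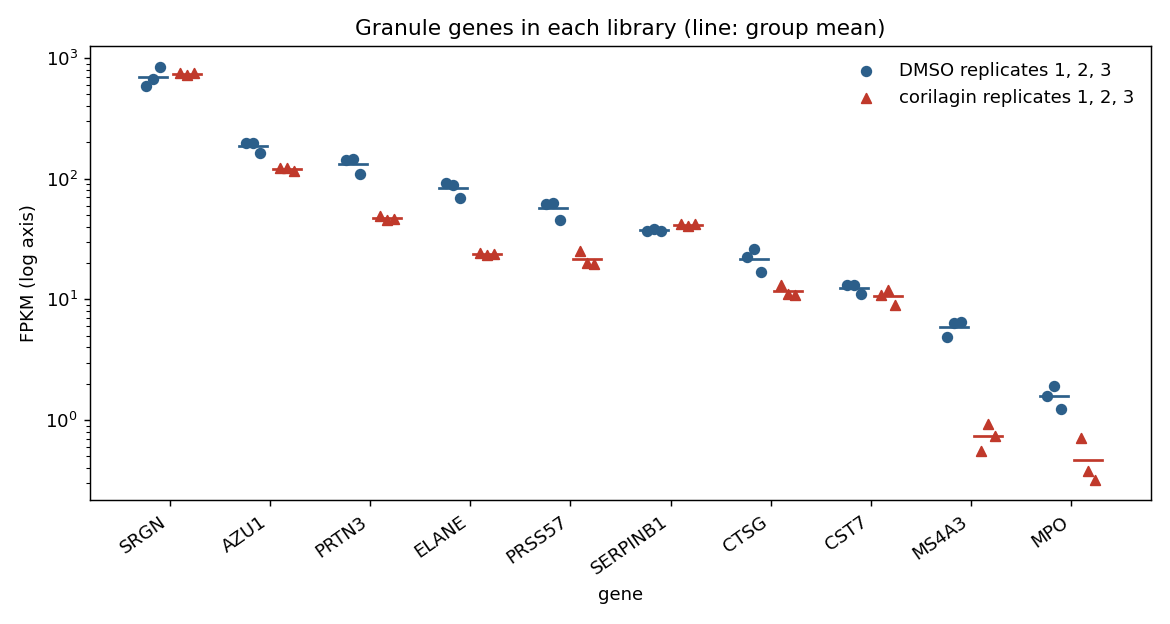
FPKM on a log axis of the 10 genes in each library, with DMSO replicates as circles, corilagin replicates as triangles and a line at each group mean. The groups separate for AZU1, PRTN3, ELANE, PRSS57, CTSG, MS4A3 and MPO, with corilagin lower, and for SERPINB1, with corilagin slightly higher, and they overlap for SRGN and CST7.

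ELANE encodes neutrophil elastase, which degrades matrix and bacterial proteins. It stood at 92.3, 88.7 and 69.9 FPKM in DMSO replicates 1, 2 and 3, and at 24.4, 23.5 and 23.8 FPKM in the corilagin replicates. The corilagin libraries were nearly level, and the third DMSO library was the lowest control, still far above any of them. Group means were 83.6 ± 12.1 and 23.9 ± 0.480 FPKM (SD, n = 3 per group), a log2 difference of -1.76 (SE 0.115), and 447 to 1866 fragments lay behind each value. PRTN3 encodes proteinase 3, the autoantigen of many vasculitis patients, and DMSO replicate 3 was likewise its lowest control. It was at 144, 146 and 108 FPKM in DMSO and at 49.5, 45.9 and 46.1 FPKM after corilagin, a log2 difference of -1.46 (SE 0.125). PRSS57, neutrophil serine protease 4, cleaves after arginine. Its DMSO values were 61.9, 63.1 and 45.8 FPKM and its corilagin values 25.0, 20.0 and 19.9 FPKM, with a log2 difference of -1.35 (SE 0.150). These 3 genes were called lower whichever library was left out.

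CTSG and AZU1 moved less. CTSG, cathepsin G, a protease with chymotrypsin-like specificity, was at 22.3, 26.2 and 17.02 FPKM in DMSO and at 13.2, 11.2 and 10.8 FPKM after corilagin. The groups did not overlap, but the gap between the closest libraries was smaller than the range within DMSO. Its log2 difference was -0.83 (SE 0.159), and the call was lost without any 1 corilagin library or DMSO replicate 2 (log2 difference -0.91 to -0.69). AZU1, azurocidin, is an antimicrobial and heparin-binding member of the family that has lost protease activity. It was the most abundant of the 5 family members, at 198, 199 and 164 FPKM in DMSO and at 123, 122 and 116 FPKM after corilagin. The log2 difference was -0.62 (SE 0.0946), and the call ended without any 1 corilagin library (log2 difference -0.64 to -0.60).

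The mix of the family changed as well as its level. The summed FPKM of ELANE, PRTN3, PRSS57, AZU1 and CTSG was 518, 523 and 406 in the DMSO libraries and 235, 223 and 217 in the corilagin libraries. Of that sum, AZU1 took 38.9 ± 1.41% in DMSO and 53.6 ± 1.21% after corilagin (SD, n = 3 per group), while ELANE took 17.3 ± 0.439% and 10.6 ± 0.307%. Ratios within a library do not depend on how libraries are scaled. ELANE was at 0.467, 0.445 and 0.425 of AZU1 in DMSO and at 0.198, 0.192 and 0.205 of AZU1 after corilagin, with no overlap. PRTN3 to PRSS57 was the steadier pair, at 2.34 ± 0.0292 in DMSO and 2.2 ± 0.19 after corilagin, with overlap between the groups. The AZU1 to CTSG ratio, 8.71 ± 1.03 and 10.4 ± 0.857, also overlapped. Of the 10 ratios among these 5 genes, 8 did not overlap between groups. The share of non-overlapping ratios among other gene pairs was not computed, so this count has no background to set it against. The ratios come from the contrast by which the genes were chosen and are descriptions without a test.

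**Figure D2:**
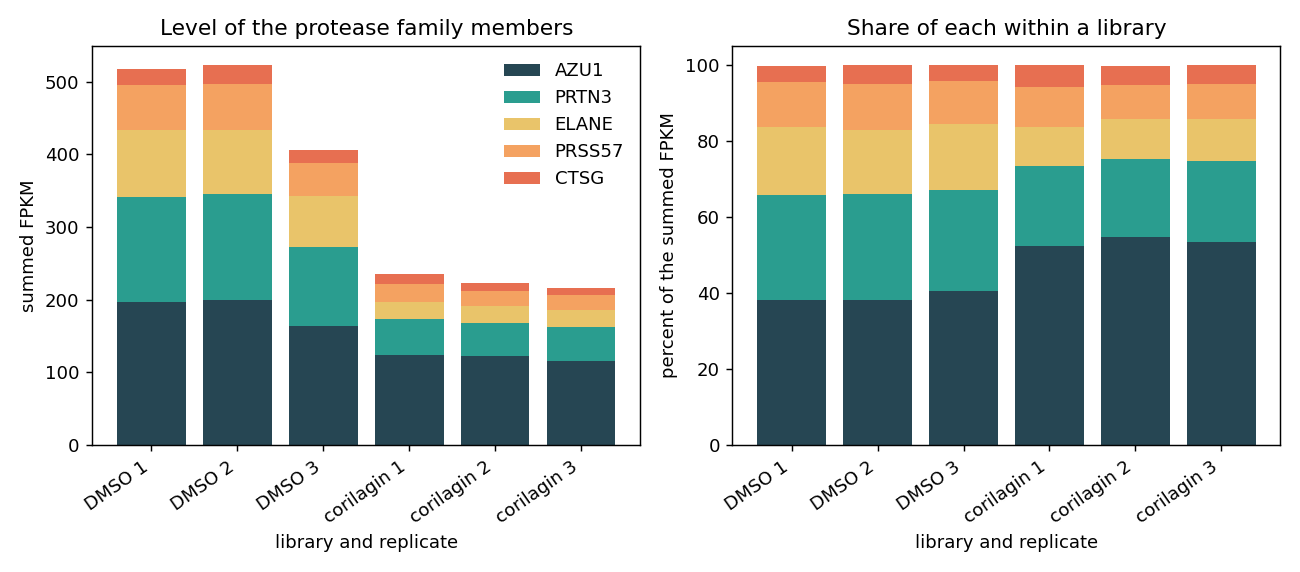
Stacked bars of the 5 serine protease family members in each library, as summed FPKM (left) and as percent of that sum (right). The sum was 406 to 523 FPKM in DMSO and 217 to 235 FPKM after corilagin, and the AZU1 share was larger in every corilagin library than in any DMSO library.

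MPO and MS4A3 were the least abundant of the 10 genes. MPO encodes the haem peroxidase that makes hypochlorous acid in the phagosome and is the classic cytochemical marker of myeloid blasts, yet it was at only 1.57, 1.93 and 1.25 FPKM in the DMSO libraries. After corilagin it was at 0.710, 0.381 and 0.321 FPKM, from 26 to 68 fragments. Its mean over all libraries, 1.03 FPKM, passed the filter of 1 FPKM only through the DMSO group, so its call has no weight, and the call was lost without corilagin replicate 2 or 3 (log2 difference -0.77 and -0.74, against -0.81 with all libraries). MS4A3, a membrane protein that marks granulocyte-monocyte precursors, was at 4.89, 6.32 and 6.46 FPKM in DMSO and at 0.555, 0.933 and 0.735 FPKM after corilagin. Every corilagin value lay far below every DMSO value, from 25 to 38 against 200 to 264 fragments. MS4A3 likewise passed the filter only through its DMSO values, so its call has no weight either. The ratio of means was 0.126. The log2(FPKM + 1) difference of -1.98 (SE 0.126) understates the change at such low levels. On recovered fragments with voom, a weighted linear model for counts, the log2 difference was -2.99.

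Serglycin, encoded by SRGN, carries the glycosaminoglycan chains that hold elastase in the granule, and it was the most abundant of the 10 transcripts. It was at 589, 671 and 850 FPKM in DMSO and at 753, 731 and 747 FPKM after corilagin. The DMSO libraries spread to both sides of the corilagin libraries, and the log2 difference was 0.10 (SE 0.131). Its direction depended on the third DMSO library: without it SRGN was called higher (log2 difference 0.24), and against that library alone, a comparison that called 38.0% of all tested genes in either direction, it was called lower (-0.19). CST7 encodes cystatin F, an inhibitor of cysteine cathepsins that can reach cathepsin C, and overlapped between groups, with 13.2, 13.1 and 11.1 FPKM in DMSO and 10.99, 12.1 and 8.95 FPKM after corilagin. Its log2 difference was -0.21 (SE 0.126), and -0.29 with a call when DMSO replicate 3 was left out. Without that library 3597 of all 9868 tested genes were called lower and 4030 higher, the background for such calls of SRGN, CST7 and SERPINB1. SERPINB1, a cytosolic serpin that inactivates elastase, proteinase 3 and cathepsin G, was at 37.2, 38.5 and 37.1 FPKM in DMSO and at 42.3, 40.3 and 42.3 FPKM after corilagin. These groups did not overlap, as in 25.0% of tested genes in the higher direction, but the log2 difference of 0.14 (SE 0.0702) did not pass. It passed without DMSO replicate 3 (0.13), against that library alone (0.16) and with libraries rescaled to equal sums (0.26). The summed FPKM of ELANE, PRTN3 and CTSG was 6.33 ± 0.926 times that of SERPINB1 in DMSO and 1.99 ± 0.0759 times after corilagin. In DMSO replicates 1, 2 and 3 it was 6.95, 6.77 and 5.27 times. ELANE, PRTN3 and CTSG have 57.2 to 66.8% GC and SERPINB1 has 44.9%. The control libraries differed by GC content, as described below, and the part of that in this ratio was not tested. It comes from the contrast by which the genes were chosen and is a description without a test.

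In order of level, DMSO libraries ran from SRGN through AZU1, PRTN3, ELANE, PRSS57, SERPINB1, CTSG, CST7 and MS4A3 to MPO. After corilagin SERPINB1 (41.6 ± 1.19 FPKM) stood above ELANE (23.9 ± 0.480 FPKM) and PRSS57 (21.6 ± 2.92 FPKM). ELANE and PRSS57 overlapped after corilagin, as did CTSG (11.7 ± 1.28 FPKM) and CST7 (10.7 ± 1.57 FPKM), and these neighbours do not differ beyond their spread.

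The control libraries differed among themselves by the GC content of transcripts, and the granule genes lie at both ends of that range. ELANE, PRTN3, PRSS57 and AZU1 have 63.4 to 67.7% GC, whereas SRGN and MS4A3 have 38.1 and 40.8%. The 577 tested genes in the first range had a median log2 difference of -0.25, and 30.8% of them were called lower. Among the 1098 genes in the second range the median was 0.38, with 1.09% called lower and 20.0% higher. Against DMSO replicate 3 alone, the control library nearest to corilagin in this respect, ELANE was at 0.342, PRTN3 at 0.435, PRSS57 at 0.472, CTSG at 0.688, AZU1 at 0.733 and MS4A3 at 0.115. With the GC trend of each library removed, the log2 differences were -2.31 for MS4A3, -1.50 for ELANE, -1.21 for PRTN3, -1.09 for PRSS57, -0.67 for CTSG, -0.63 for MPO and -0.39 for AZU1. All 7 kept their call, though those of MPO and MS4A3 have no weight. SRGN then turned to -0.34 and was called lower, which made 8 of 10 lower, against 23.2% of all tested genes lower and 45.0% called in either direction, while CST7 (-0.05) and SERPINB1 (0.02) lay near 0. The AZU1 difference moved by more than 1.5 times, from -0.62 to -0.39.

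**Figure D3:**
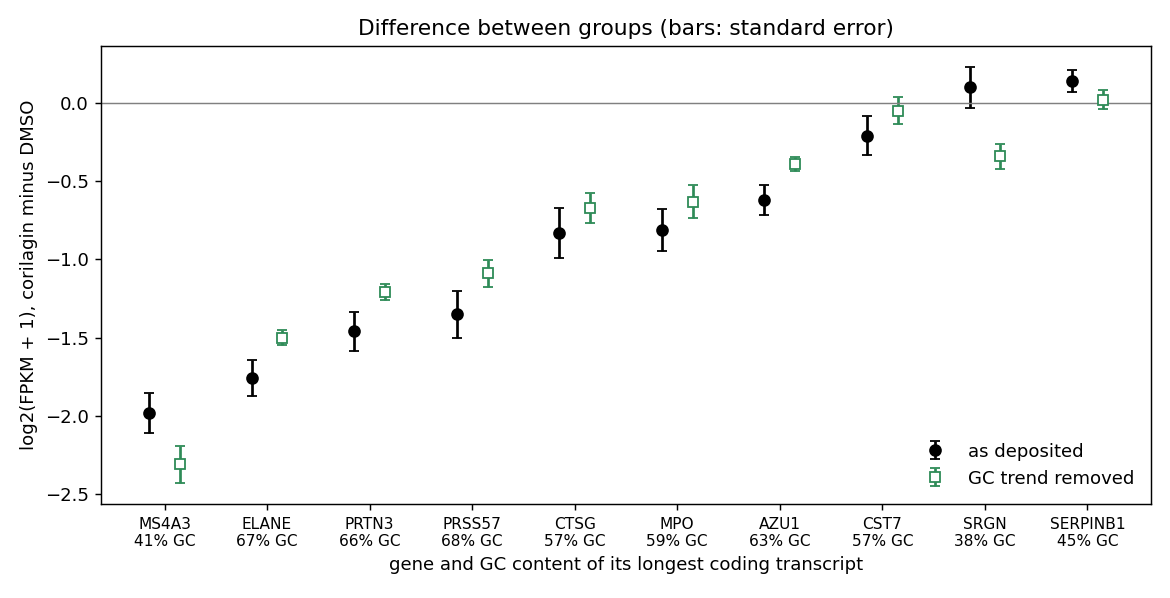
Difference between corilagin and DMSO on the log2(FPKM + 1) scale for the 10 genes, as deposited (filled circles) and with the GC trend of each library removed (open squares), with standard errors and the GC content of each transcript. The GC-rich proteases moved toward 0 and stayed below it, MS4A3 moved away from 0, and SRGN went from 0.10 to -0.34.

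Of the 10 genes, 4 lie close together on the short arm of chromosome 19 (GRCh38). AZU1 (825097 to 832018), PRTN3 (840960 to 848175) and ELANE (851014 to 856247) follow one another on the plus strand, and PRSS57 (685546 to 695498, minus strand) starts 155.5 kb away from ELANE. CFD, complement factor D, itself a serine protease of the same family, starts 8.6 kb beyond ELANE and fell from 72.3 ± 11.9 to 32.8 ± 0.855 FPKM (SD, n = 3 per group; log2 difference -1.10, limma adjusted p = 0.00348). PLPPR3, a phospholipid phosphatase-related membrane protein on the opposite strand beside AZU1, fell from 49.1 ± 10.2 to 19.5 ± 1.05 FPKM (limma adjusted p = 0.00414). PLPPR3, AZU1, PRTN3, ELANE and CFD are consecutive genes of the deposited table over 51.1 kb, and all 5 were called lower. Of these, AZU1, PRTN3 and ELANE were chosen by their fold changes in this contrast, so only PLPPR3 and CFD add to the run. This run was noticed after the values were seen. Its flanking genes PTBP1 (log2 difference -0.32) and MED16 (-0.25) did not pass. Of the 18 tested genes other than the 4 that start within 300 kb of ELANE, 6 were called lower and none higher in limma (8 and 2 at an unadjusted p under 0.05, 6 and none with voom), with a median of -0.23. The shares among all tested genes were 13.5% lower and 11.9% higher, or 23.2% and 21.8% with the GC trend removed. In the GC range of the 4 genes, 30.8% of tested genes were called lower and 2.08% higher. POLRMT, the mitochondrial RNA polymerase, was the third named fall, to 0.572 of DMSO. The window is GC-rich, and with the GC trend removed 6 genes were lower and 4 higher, with a median of -0.02. Without 1 library at a time the CFD and PLPPR3 calls held in all 6 fits, and that of POLRMT was lost without any library other than DMSO replicate 3 (adjusted p up to 0.0802).

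**Figure D4:**
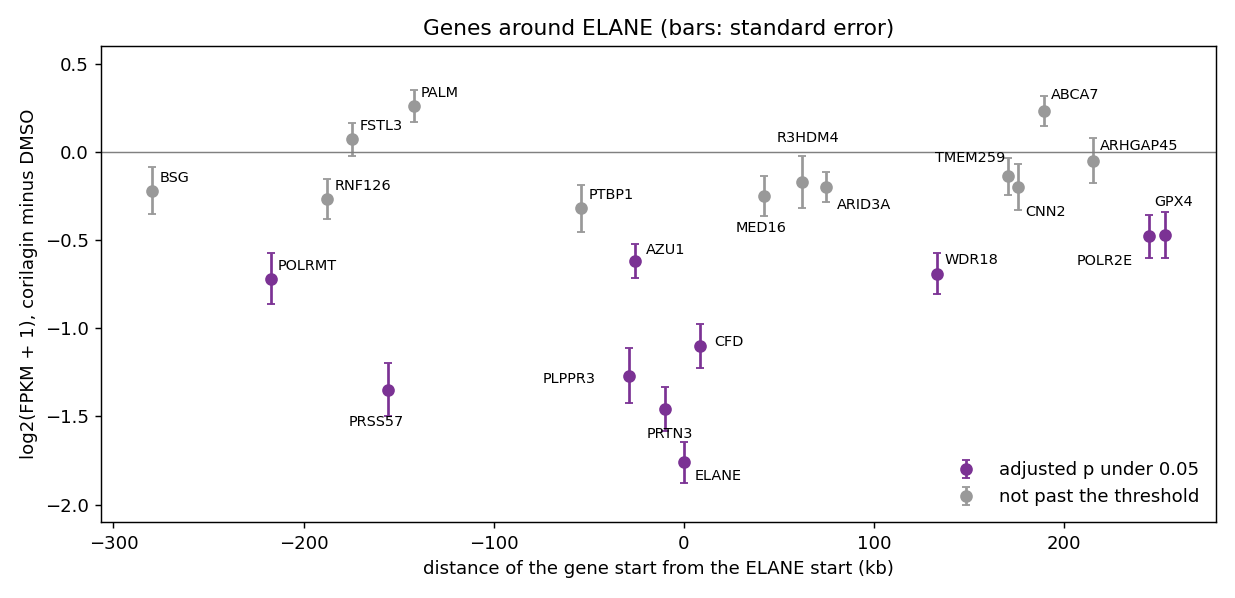
Log2 difference between corilagin and DMSO, with its standard error, of the 22 tested genes that start within 300 kb of ELANE, by distance of each start from that of ELANE. The 5 consecutive genes from PLPPR3 to CFD and PRSS57 lie lower than most of the others, which range from POLRMT at -0.72 to PALM at 0.26.

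Outside the 10 genes, granule contents did not move in 1 direction. Of 20 other azurophil contents and granule membrane proteins, 12 were tested, 4 were lower and 2 higher, with a median log2 difference of -0.22 (with the GC trend removed, 4 lower and 3 higher). LYZ, lysozyme, fell from 68.5 ± 5.50 to 42.8 ± 1.94 FPKM (log2 difference -0.66, limma adjusted p = 0.00502). The lysosomal hydrolases MAN2B1 and GUSB fell to 0.594 and 0.767 of DMSO. FUCA1 and NEU1, which remove fucose and sialic acid, rose 1.66-fold and 1.41-fold. The calls of LYZ and FUCA1 held whichever library was left out. That of MAN2B1 was lost without any 1 corilagin library or DMSO replicate 2, and those of GUSB and NEU1 also without DMSO replicate 1 (adjusted p up to 0.142). NEU1 was not called without the filter or with median-of-ratios scaling. BPI, a bactericidal protein of the same granules, was under 0.2 FPKM in every library. Among 23 contents of specific, gelatinase and eosinophil granules only 5 were tested. RNASE2, a ribonuclease of eosinophil granules, fell to 0.728 of DMSO, none rose in limma (none at an unadjusted p under 0.05 and none with voom), and with the GC trend removed 2 were lower and 2 higher. The RNASE2 call was lost with equal sums and without any 1 corilagin library or DMSO replicate 2 (adjusted p up to 0.111).

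Genes that activate, pack, sort or release granule proteins mostly did not pass. Of 32 such genes 29 were tested, 6 were higher, 3 lower and 20 not called, with a median of -0.05 (with the GC trend removed, 9 higher and 6 lower). CTSC, cathepsin C, was at 10.5 ± 0.878 FPKM in DMSO and at 0.957 of that after corilagin (limma adjusted p = 0.637). Its log2 difference of -0.06 became -0.49 once the GC trend was taken out, with an adjusted p of 0.0123. CSGALNACT2, which starts the chondroitin chains that serglycin carries, rose 1.70-fold, GNPTAB, which builds the mannose 6-phosphate sorting signal, rose 1.80-fold, and SRP54 of the signal recognition particle rose 1.5-fold. G6PC3, a glucose-6-phosphatase whose loss causes neutropenia, fell to 0.512 of DMSO, and XYLT2, which begins proteoglycan chains, to 0.767. XYLT2 was no longer called once the GC trend was taken out (log2 difference -0.10), without the filter, with equal sums or against DMSO replicate 3 alone. SRP54 was not called with a pseudocount of 0.1, without the filter, at a mean of 5 FPKM, with either other scaling or against DMSO replicate 3 alone, and GNPTAB was not called without the filter. The G6PC3 call was lost without corilagin replicate 1 or 3 (adjusted p up to 0.0559), and the other 4 without any library other than DMSO replicate 3 (adjusted p up to 0.168).

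Inhibitors and lysosomal proteases changed little as groups. Of 10 tested inhibitors, 2 rose and none fell in limma (none at an unadjusted p under 0.05 and none with voom; with the GC trend removed, 3 higher and 1 lower). SERPINI1, neuroserpin, rose 3.02-fold from 1.52 ± 0.296 FPKM and A2M, alpha-2-macroglobulin, 2.73-fold from 0.547 ± 0.0675 FPKM. The SERPINI1 call held whichever library was left out. A2M passed the filter only through its corilagin values, so its call has no weight, and neither gene reached a mean of 5 FPKM, a filter at which no inhibitor was called higher. Of 11 tested cathepsins and related proteases, SCPEP1 rose 1.26-fold and CTSZ fell to 0.698 of DMSO, and 9 did not pass. Both calls were lost without any library other than DMSO replicate 3 (adjusted p up to 0.142), and that of SCPEP1 also without the filter or with median-of-ratios scaling.

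Markers of granulocyte-monocyte precursors other than the 10 genes were lower in 5 of 11 tested cases and higher in 1, with a median of -0.39 (with the GC trend removed, 7 lower and 2 higher). Over all tested genes 13.5% were lower and 11.9% higher, or 23.2% and 21.8% with the GC trend removed. Of the 5, IGLL1 (means of 4.11 FPKM in DMSO and 0.304 FPKM after corilagin) passed the filter only through its DMSO values. Its call therefore has no weight. At a mean of at least 5 FPKM 4 of 10 tested markers were lower and 1 higher. PLAC8, a cysteine-rich protein of myeloid precursors, fell from 48.9 ± 2.62 to 23.2 ± 1.18 FPKM (log2 difference -1.05, limma adjusted p = 0.00142), beside CFD. CLEC11A, a secreted growth factor, fell to 0.684 of DMSO, and against DMSO replicate 3 alone it was at 0.842. FLT3, the receptor kinase that is mutated in this line, rose 1.43-fold. The PLAC8 and CFD calls held whichever library was left out, and those of CLEC11A and FLT3 were lost without any library other than DMSO replicate 3 (adjusted p up to 0.116), that of FLT3 also without the filter. Several genes stand in 2 of the lists described here, among them RNASE2, CFD, FLT3, CEBPA, SPI1, CD33 and CD68, and the lists are not separate evidence.

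Transcription factors of myeloid granule genes moved in both directions. CEBPA (C/EBP alpha) was at 36.0 ± 6.02 FPKM in DMSO and 26.9 ± 0.605 FPKM after corilagin, and SPI1 (PU.1) at 145 ± 22 and 111 ± 2.46 FPKM. Neither passed in limma (adjusted p = 0.0592 and 0.0566), and against DMSO replicate 3 alone they were at 0.927 and 0.928. Both were called lower without that library (log2 difference -0.54 and -0.50), a fit that called 3597 of 9868 tested genes lower and 4030 higher. SPI1 was also called lower with median-of-ratios scaling (-0.42). MYB was at 65.1 ± 10.1 and 60.3 ± 1.08 FPKM, RUNX1 at 17.1 ± 0.801 and 18.9 ± 0.434 FPKM, and GFI1 at 38.7 ± 2.80 and 39.3 ± 0.952 FPKM, and none of the 3 passed. CEBPE, a factor of the later granules, lay under 1.2 FPKM in every library. MYC fell from 65.1 ± 5.44 to 26.1 ± 1.93 FPKM (log2 difference -1.28, limma adjusted p = 0.00117) and IRF8, a factor of the monocyte branch, to 0.706 of DMSO, whereas ELF1, an ETS factor, rose 1.42-fold and LMO4 1.33-fold. In all, 2 of 13 tested regulators were lower and 2 higher (4 and 4 with the GC trend removed, MYB at -0.27 and CEBPA at -0.14 among the lower, GFI1 at 0.17 among the higher). ELF1 then lost its call (log2 difference 0.08). The MYC call held whichever library was left out, that of IRF8 was lost without any 1 corilagin library (adjusted p up to 0.0556), and those of ELF1 and LMO4 without any library other than DMSO replicate 3 (adjusted p up to 0.118).

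Haem synthesis, which supplies the cofactor of myeloperoxidase, was split. ALAS1, the rate-limiting enzyme, and CPOX rose 1.41-fold and 1.42-fold, while UROD, which acts between them, fell to 0.722 of DMSO. FURIN, a proprotein convertase, fell to 0.667 of DMSO, and the chaperone CALR was at 0.840 of DMSO without a call. Of 13 tested genes of this group 4 were lower and 2 higher, with a median of -0.13 (with the GC trend removed, 5 lower and 2 higher). The calls of ALAS1 and CPOX were lost without any 1 corilagin library or DMSO replicate 2, and those of UROD and FURIN also without DMSO replicate 1 (adjusted p up to 0.157). UROD and FURIN were not called without the filter or against DMSO replicate 3 alone, nor FURIN with equal sums.

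Most markers listed for the labelled line were present, with FLT3, SPI1, CD33, HOXA9 and MEIS1 above 4 FPKM in both group means. In the same list ITGAM was at 1.39 FPKM in DMSO and 2.84 FPKM after corilagin. CD68 was hardly detected, with a mean of 0.0115 FPKM over all libraries. Of 9 tested markers of the line, 4 were higher and none lower in limma (2 lower at an unadjusted p under 0.05, none with voom; 1 with the GC trend removed). Their summed level was 427 to 461 FPKM in DMSO and 505 to 509 FPKM after corilagin. FLT3 was the largest part of that sum, with means of 217 and 311 FPKM. SPI1, the next largest, went the other way (145 and 111 FPKM, not called), so the sum does not describe the list as a whole. The FLT3, MEIS1 and FUT4 calls were lost without any library other than DMSO replicate 3 (limma adjusted p up to 0.134). MEIS1 also lost its call with the GC trend removed, and both FLT3 and MEIS1 without the filter. Among 5 tested markers of mature monocytes ITGAX rose 1.77-fold and S100A9 fell to 0.652 of DMSO, the latter without a call when corilagin replicate 1 or 2 was left out (adjusted p up to 0.0544). Of 30 markers of erythroid, lymphoid, megakaryocytic, mast and basophil cells, 11 were at 0 in every library and 24 had a mean under 1 FPKM. None of the 6 tested was called in limma, none at an unadjusted p under 0.05 and none with voom, but with the GC trend removed the megakaryocyte markers ITGA2B and GP1BA were called higher (log2 difference 0.34 and 0.22). The summed level of the 30 markers was 61.9 to 69.1 FPKM after corilagin and 60.7 to 80.8 FPKM in DMSO. The part of these markers in the differences of the granule genes was not tested.

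The 5 genes outside the set whose centred log2(FPKM + 1) profile over the 6 libraries lay closest to that of ELANE, by Euclidean distance and with mean levels no lower than 5 FPKM, were ALDH18A1 (0.393), PPP1R27 (0.416), HPDL (0.459), B3GNT7 (0.486) and FKBP4 (0.492). ALDH18A1 encodes the first enzyme of proline synthesis and FKBP4 a co-chaperone of HSP90. Within the set PRTN3 was closer than any of these, at 0.368, PRSS57 was at 0.549, MS4A3 at 0.646 and CTSG at 1.17, while SERPINB1 and SRGN were farthest, at 2.34 and 2.37. With 2 groups of 3 libraries this distance mostly reads the size of the difference between groups.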

How the data were processed

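RNA-seq libraries of MV411 cells, 3 with corilagin and 3 with DMSO, were read from 1 table of FPKM deposited by the authors for 20036 Ensembl genes. Per the submitters' processing notes, fastp 0.22.0, HISAT2 2.1.0, GRCh38, HTSeq 0.9.1 and DESeq 1.38.3 were used, and their settings are not given in the sources used here. The labels' protocols describe a poly(A) library without naming strand, so overlapping genes on opposite strands cannot be told apart. Very abundant transcripts shift all FPKM of a library. Symbols matched 20011 identifiers, and coordinates and transcript GC content (longest coding transcript) came from GENCODE release 29.

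FPKM are whole multiples of the value of 1 fragment, and fragments were recovered to within 0.01 of a whole number. Numbers that share a factor in all libraries come out divided by it, so library totals are lower bounds. Groups were compared by limma 3.58.1 under R 4.3.3 (trend, 2-sided) on log2(FPKM + 1), 6 libraries, no covariates, mean of at least 1 FPKM, Benjamini-Hochberg over 9868 genes, threshold 0.05. The GC trend was removed by a spline with 5 degrees of freedom in each library, which also removes true differences that follow GC. The scripts were tested on simulated data. The genes, the lists, the test and the alternatives were chosen with earlier results of these data known. Only the fit with DMSO replicate 3 as the lone control was added after the table was opened. Named genes were the 10, up to 3 rises and 3 falls per list with the largest log2 difference (mean of at least 5 FPKM where any reached it), 11 regulators and markers named for their role, and the 5 profiles nearest to ELANE. Others named beside counts were chosen after their values were seen. A gene that this rule names is not reported here.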

Additional observations from a re-analysis of the deposited data

How the results depend on the processing

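Counts of the 10 genes called lower stayed at 5 to 8 under each alternative that kept all libraries. The 5 came at a mean of at least 5 FPKM, where only 8 of the 10 were tested, without MPO and MS4A3, whose calls have no weight. Without 1 library at a time 4 to 8 were called lower and 0 to 2 higher, the fewest lower without corilagin replicate 2 or 3. ELANE, PRTN3 and PRSS57 were called lower in every fit, with log2 differences of -1.88 to -1.50, -1.60 to -1.19 and -1.50 to -1.06. Members called higher numbered 1 with equal library sums and 1 with DMSO replicate 3 as the lone control, in both cases SERPINB1. The lone control is assumed to vary like the corilagin libraries. Over all genes, 1331 were lower and 1171 higher as deposited, against 176 to 3597 and 131 to 4030 without 1 library, 2287 and 2149 with the GC trend removed, and 1831 and 1916 with the lone control. The largest of these counts, 3597 lower and 4030 higher, came without DMSO replicate 3. At a mean of at least 5 FPKM 1010 of 6570 tested genes were lower and 713 higher. Equal sums raised the median of all genes from 0.035 to 0.136 and gave 1620 higher and 1059 lower (60.5% higher, against 46.8%). Differences relative to that shift keep the signs given for the 7 lower genes. The direction turned for SRGN with the GC trend removed (-0.34, and -0.34 with the replicate block as well), with the lone control (-0.19) and without DMSO replicate 1 (-0.02). It also turned for CTSC (0.05) and MYB (0.02) with equal sums, for CTSC (0.01), MYB (0.02) and GFI1 (-0.04) without DMSO replicate 3, and for GFI1 (-0.02) with median-of-ratios scaling. Without 1 library at a time SRGN ranged from -0.02 to 0.24, CTSC from -0.09 to 0.01, GFI1 from -0.04 to 0.06 and MYB from -0.18 to 0.02. The causes were not tested. List counts moved by over 1.5 times in 135 fits and not in 249. Of 39 other named genes with a call, 15 kept it in all 6 fits without 1 library. Same-numbered libraries share only a number: their deviations correlated at 0.280, 0.079 and 0.339, and DMSO replicate 2 correlated best with corilagin replicate 1. The replicate block gave 7 of the 10 genes lower and none higher, with 1547 genes higher and 1330 lower over all, or 2155 and 2238 with the GC trend removed as well. The block also called CEBPA and SPI1 lower (limma adjusted p = 0.0464 and 0.0447) and ended the XYLT2 call. Depth limits MPO, at 26 to 171 fragments.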
